A study of Mus musculus with 36 samples.

Results

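Interferon response and antigen presentation genes were examined for 2 acetylation marks of histone H3, on lysine 9 (H3K9ac) and on lysine 27 (H3K27ac), in mouse dorsal hippocampus. The set holds 44 of the 21887 protein-coding genes on the assembled chromosomes, chosen by name for their roles and not by a threshold on acetylation. It was drawn up with an earlier result in view, namely that interferon genes had more H3K27ac in untreated knockdown mice than in untreated control mice. For each gene, the bases lying inside a deposited peak within 2 kb of either gene end were counted, in base pairs (bp), separately in each peak list. This number is called covered bases below.

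The study used male mice aged 8 weeks. Knockdown mice received an adeno-associated virus in the dorsal hippocampus, with a short hairpin RNA against Acss2 under the U6 promoter and an EGFP reporter under the CMV promoter. Control mice received a control vector whose content the labels do not describe. Mice of either kind were left untreated, with no saline injection named, or received ethanol intraperitoneally (2 g/kg, a 20% solution). All mice therefore carried a vector, and neither promoter restricts it to a cell type by design. The 24 ChIP-seq samples (chromatin immunoprecipitation and sequencing) and 12 inputs form 12 groups of 3 replicates. Only 1 peak list stands for the 3 replicates of a mark and condition, so every value below is a single value with no replicate error, and no difference between conditions could be tested. Values of a gene are given in a fixed order, which is untreated control, ethanol control, untreated knockdown and ethanol knockdown. The tissue was taken whole, so a larger share of cells carrying a mark and more mark per cell cannot be told apart.

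Type I interferons bind the receptor built from IFNAR1 and IFNAR2. The receptor activates STAT2, which joins IRF9 in a complex that binds the interferon-stimulated response element in the promoters of antiviral genes. Interferon gamma acts through another sequence, the gamma-activated site, and induces IRF1, NLRC5 and the machinery that loads peptides onto major histocompatibility complex (MHC) class I. In the brain, microglia, astrocytes, endothelial cells and neurons can all respond to interferon. ACSS2 makes acetyl-CoA from acetate, the product of ethanol oxidation, and acetyl-CoA is the donor for histone acetylation.

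Promoter sequences were searched for the core of both elements on both strands, from 250 bases before to 50 bases after the start site. RefSeq promoters of GRCm38.p6 were found for 35 of the 44 genes. The core of the response element, GAAA followed by any 2 bases and a second GAAA, was present in 14 of these 35 genes (40%), against 3.94% of 17492 protein-coding genes and 3.44% of all 32851 promoters in the table. TTCNNNGAA, the gamma-activated site, which reads the same on both strands, was present in 11 of 35 (31.4%), against 8.92% of protein-coding genes and 8.3% of all promoters. Irf2, Oas1a, Bst2 and Ifitm3 held both. The stretches below belong to the 6 genes with a match and the largest H3K27ac difference between untreated knockdown and untreated control, printed in the direction of transcription with the matched letters in capitals. They show where the letters lie relative to the peaks described later.
Isg20, chr7:78913311-78913399, + strand: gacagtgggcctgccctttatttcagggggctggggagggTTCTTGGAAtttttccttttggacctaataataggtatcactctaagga
Bst2, chr8:71537547-71537648, - strand: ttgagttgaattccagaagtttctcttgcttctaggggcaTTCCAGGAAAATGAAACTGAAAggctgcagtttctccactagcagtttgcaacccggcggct
B2m, chr2:122147508-122147597, + strand: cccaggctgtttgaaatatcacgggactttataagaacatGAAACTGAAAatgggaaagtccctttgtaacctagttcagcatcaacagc
Ifitm3, chr7:141010716-141010742, - strand: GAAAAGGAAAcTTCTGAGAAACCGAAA
Irf1, chr11:53769884-53769972, + strand: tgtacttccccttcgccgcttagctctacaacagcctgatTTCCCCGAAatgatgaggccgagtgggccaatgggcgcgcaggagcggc
Ifit3, chr19:34583333-34583456, + strand: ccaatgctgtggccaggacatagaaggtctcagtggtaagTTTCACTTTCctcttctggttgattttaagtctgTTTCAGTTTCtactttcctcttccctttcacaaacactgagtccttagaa
Isg20 and Irf1 held the gamma-activated letters alone, B2m and Ifit3 the response element letters alone. In Bst2 and Ifitm3 matches of both kinds overlap. The table holds 3 promoters of Isg20 and 2 of Irf1, and the one with a match is shown. A match describes letters and does not show that a factor binds there.

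In the fixed order, H3K27ac peaks overlapped 24, 24, 25 and 28 of the 35 promoters, the most in the ethanol knockdown list. With H3K9ac the numbers were 21, 15, 21 and 23. Among the 14 genes with response element letters, a match lay wholly inside an H3K27ac peak in 4, 4, 5 and 9 genes. For H3K9ac the numbers were 5, 2, 4 and 6. The gamma-activated letters lay wholly inside an H3K27ac peak in 6, 4, 6 and 7 of 11 genes, and inside an H3K9ac peak in 5, 2, 4 and 5. Neither these counts nor the promoter overlaps were set beside all promoters, and the ethanol knockdown list was the longest of either mark. Ifih1, Irf2 and Stat2 had such a match under a peak in every H3K27ac list. Ifitm3, Oas1a, Rsad2 and Ifit1 had one under a peak in the ethanol knockdown list alone. Gbp3 had one in both knockdown lists, and Ifit3 in every list but untreated knockdown. At B2m the 10 matched bases, 139 to 130 bases before the start site, had 0, 0, 10 and 5 bases inside H3K27ac peaks. The 3 overlapping matches of Isg15 lay outside the peaks of all 8 lists. The single match of Isg20 also lay outside every peak.

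Over the whole set, H3K27ac-covered bases summed to 33787, 36539, 43565 and 50184 bp. Both knockdown sums were above both control sums. The mean over all protein-coding genes was 954, 935, 1034 and 1139 bp, and that of the 44 genes 768, 830, 990 and 1141 bp. H3K27ac peaks were found near 34, 34, 37 and 38 of the 44 genes (77.3%, 77.3%, 84.1% and 86.4%), and near 63.9%, 64.1%, 65.4% and 66.8% of all genes. For H3K9ac the sums were 33198, 23347, 32442 and 33935 bp, with peaks near 30, 28, 31 and 36 genes (68.2%, 63.6%, 70.5% and 81.8%), and near 60.8%, 57.5%, 60% and 61.3% of all genes. The ethanol control list was the low one for this mark, as it was over all genes, where the mean was 865, 671, 836 and 892 bp. The plot of H3K27ac by gene shows all values of that mark.

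**Figure D1:**
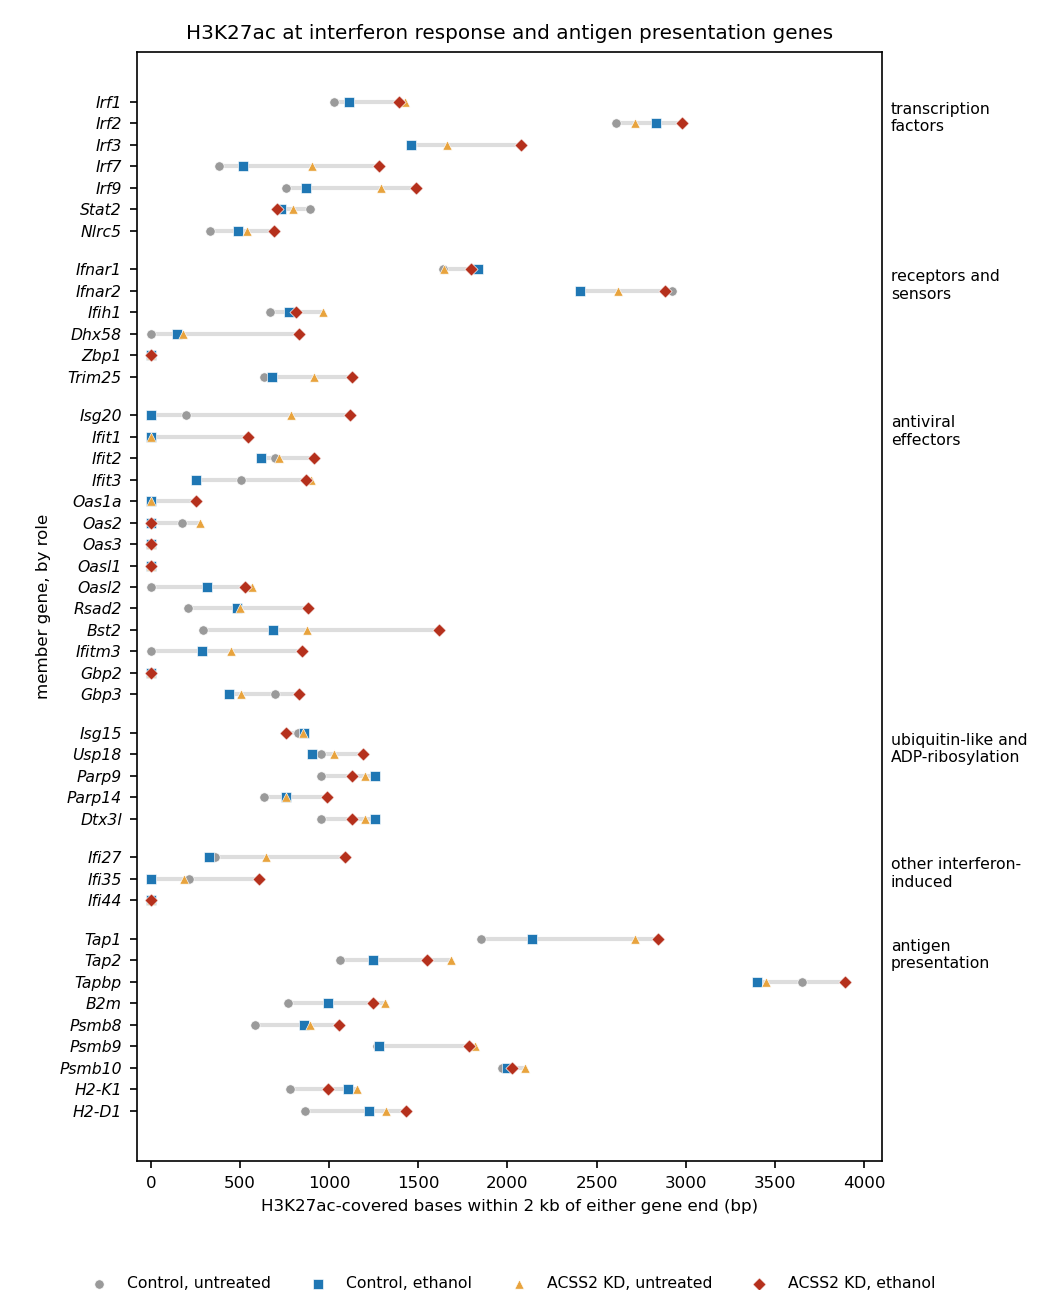
H3K27ac-covered bases (horizontal axis, bp) within 2 kb of either end of each of the 44 genes (vertical axis, by role), with 1 point per peak list and a grey line from the lowest to the highest value. Both knockdown points lie to the right of both control points for 24 of the 39 genes with a peak in any list, and no gene shows the opposite arrangement.

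A list of peaks called from more reads can hold more and wider peaks, and no read numbers are given in the sources used here. H3K9ac lists held 31042 to 42120 peaks over 16.1 to 24.1 Mb, and H3K27ac lists 86110 to 119317 peaks over 38.1 to 57.4 Mb, with the ethanol knockdown list the longest for both marks. Each count of the 44 genes is therefore read beside the same count over all genes with a peak in either list. It is also read beside genes of the same coverage, meaning the other genes in the same of 10 bins of mean covered bases as each member. A gene is called higher or lower in a comparison when its covered bases differ at least 1.5-fold between the lists, and no fold is given against a list with no peak. Acss2 had 1389, 1619, 1614 and 1634 bp of H3K27ac and 1582, 981, 996 and 1156 bp of H3K9ac. Acetylation at Acss2 is no check of the knockdown, since hairpins target the transcript.

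In untreated mice, 16 of 37 genes with a peak in either list were called higher for H3K27ac in the knockdown than in the control list (43.2%, 95% Wilson interval 28.7% to 59.1%). None was called lower. By any amount, 32 had more covered bases and 5 had fewer, where 65.6% of all genes had more. Over all genes with a peak in either list, 12.1% were higher and 3.67% lower. Among genes of the same coverage the shares were 17.1% and 5.43%. The median difference was 281 bp for the 44-gene set, 94 bp for all genes and 72 bp for genes of the same coverage. Since the set was drawn up with this comparison known, these values describe it and support nothing by themselves. The interval covers counting error over genes and not the spread between mice.

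In ethanol-treated mice, a comparison of the other 2 H3K27ac lists, 15 of 38 genes were higher in the knockdown (39.5%, 25.6% to 55.3%) and 0 lower. Of all genes 21.2% were higher and 2.02% lower, and of genes of the same coverage 27.8% and 2.97%. The share of the set was thus above both backgrounds, though the background's own share was larger here than in untreated mice, and the lower bound of the interval lay under 27.8%. The median difference was 296 bp, against 236 bp for all genes and 172 bp at the same coverage. Summed coverage was 1.37 times the control sum, against 1.22 over all genes. The genes called in the 2 settings were partly shared: 10 were higher in both, 6 in untreated mice alone and 5 in ethanol-treated mice alone. This overlap was not set beside all genes, so it is not read as a trait of the set. Whether the difference changed with ethanol could not be tested.

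**Figure D2:**
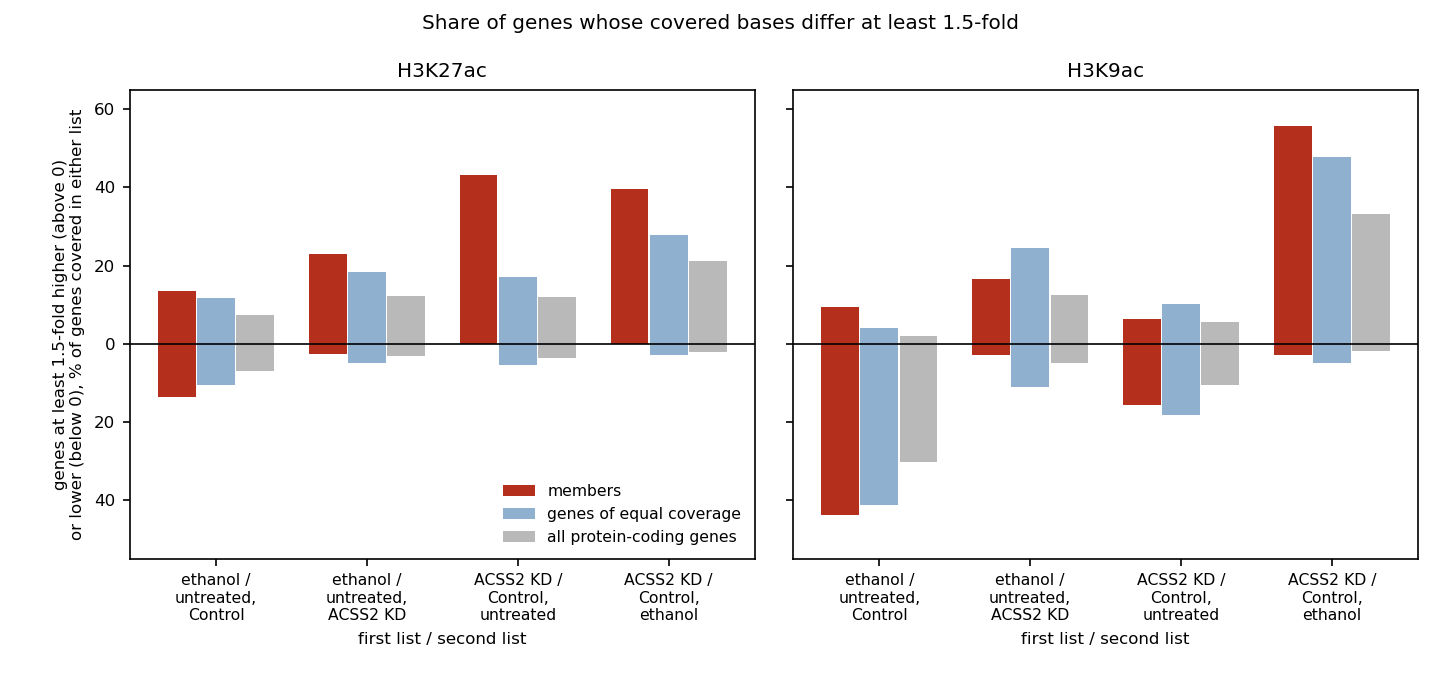
Share of genes (vertical axis, % of genes with a peak in either list) whose covered bases were at least 1.5-fold higher (above 0) or lower (below 0) in the first list named than in the second, for the 44 genes, genes of equal coverage and all protein-coding genes. For H3K27ac in the knockdown against the control vector the 44 genes reach 43.2% and 39.5% higher with none lower, against 17.1% and 27.8% of genes of equal coverage, and the H3K9ac bar under ethanol reaches 55.6% against 47.8%.

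Antiviral effectors, the largest role group, gave the most calls. Their H3K27ac sums were 2776, 3079, 5586 and 8398 bp over 14 genes, so the knockdown sum exceeded the control sum in either setting. Of 9 effectors with a peak in either list, 7 were higher in the untreated knockdown, and of 10 with a peak in either list, 9 were higher in the ethanol knockdown. None was lower in either. At the same coverage, which is low for these genes, 29.6% of other genes were higher in untreated and 43.8% in ethanol-treated mice, so calls are frequent at this coverage. The genes with the widest range over the 4 lists were Bst2, Isg20, Ifitm3 and Rsad2.

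Bst2 (chromosome 8, 71534255 to 71537472) encodes tetherin, which holds budding virus particles at the cell surface. Its H3K27ac-covered bases were 293, 685, 878 and 1614 bp, lowest in untreated control and highest in ethanol knockdown. The knockdown value was 3 times the control value in untreated mice and 2.36 times in ethanol-treated mice. A peak at or just inside the start of the gene was present in all 4 lists, and the further bases came in part from additional peaks upstream and downstream of it. H3K9ac at Bst2 ran the other way, with 582, 452, 189 and 225 bp. Bst2 was the only one of the 44 genes higher in H3K27ac and lower in H3K9ac in the ethanol knockdown. In untreated mice Dhx58 and Psmb8 shared that arrangement with it. The matched letters of Bst2 lay inside an H3K9ac peak in both knockdown lists and outside the H3K27ac peaks of all lists.

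Isg20 (chromosome 7, 78913396 to 78920396) encodes an exonuclease that degrades viral RNA. It had 199, 0, 789 and 1117 bp of H3K27ac. A region of 999 bp upstream of the gene, at chr7:78912147-78913145, was covered by peaks of the knockdown lists only. H3K9ac was present at Isg20 in the ethanol knockdown list alone, with 0, 0, 0 and 427 bp.

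Ifitm3 (chromosome 7, 141009590 to 141010744) encodes a membrane protein that hinders virus entry. Its H3K27ac-covered bases were 0, 285, 448 and 848 bp, and H3K9ac was absent from all 4 lists. Only in the ethanol knockdown list did the peak at the start site, 704 bp wide, extend over the response element letters printed above. Rsad2 (chromosome 12, 26442743 to 26456452), the gene of viperin, a radical-forming enzyme that blocks virus replication, had a single H3K27ac peak at its start site in each list. This peak was 209, 483, 501 and 881 bp wide, and again H3K9ac gave no peak. In both knockdown lists the Rsad2 peak crossed the start site, and in the ethanol knockdown list it reached over the matched letters 120 to 111 bases upstream.

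**Figure D3:**
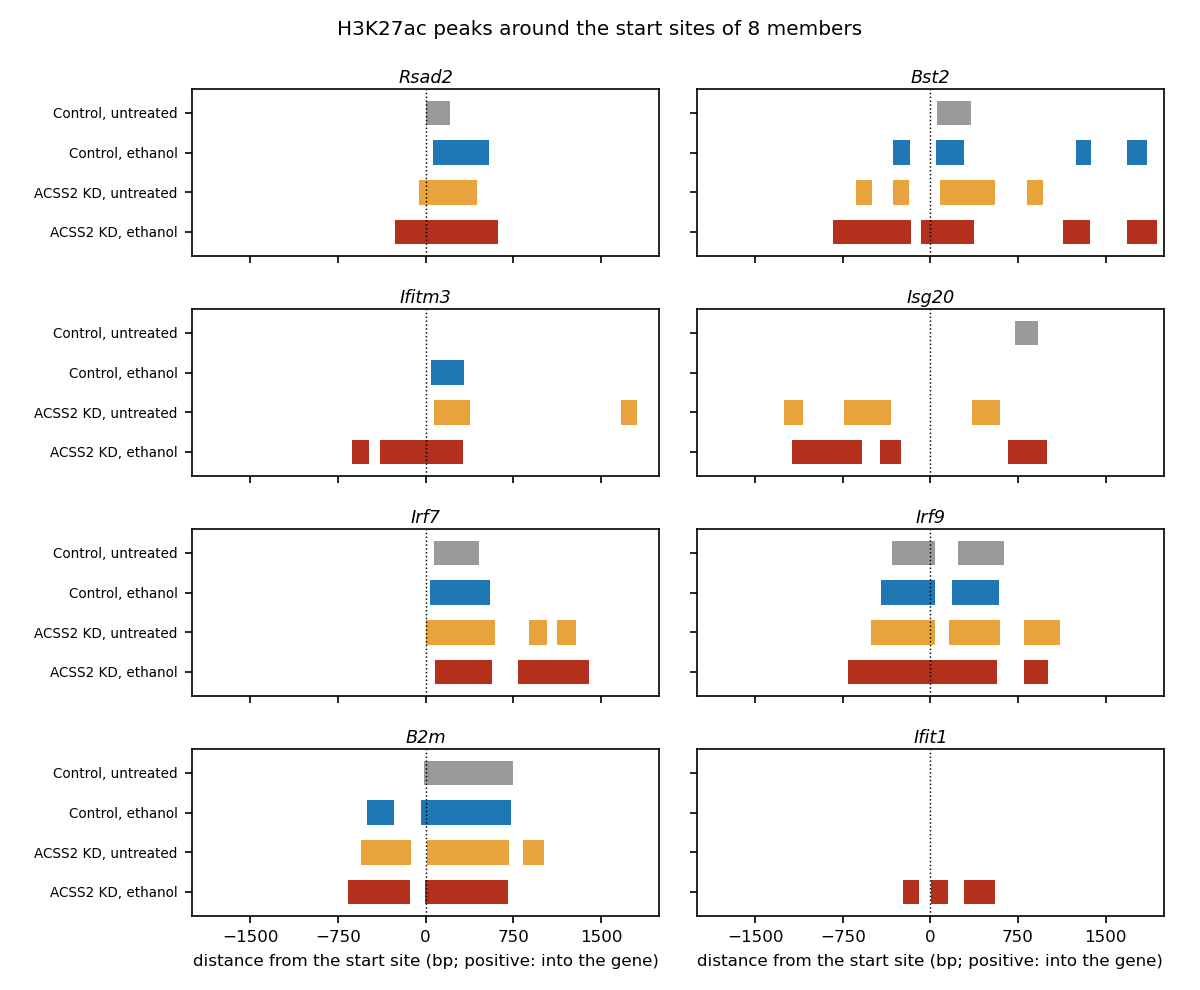
H3K27ac peaks (bars) of the 4 lists (rows) around the start site (dotted line) of 8 genes chosen after their values were seen, with distance from the start site on the horizontal axis (bp, positive into the gene). The single Rsad2 peak is 209 bp wide in untreated control and 881 bp in ethanol knockdown, and the Isg20 panel has no peak in ethanol control and upstream peaks in both knockdown lists.

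Among the RNA-binding IFIT proteins, which bind the ends of foreign RNA, 3 patterns were seen. Ifit1 had 0, 0, 0 and 546 bp of H3K27ac and 0, 0, 0 and 254 bp of H3K9ac, so both marks gave peaks in the ethanol knockdown list alone. Ifit3 had 508, 253, 898 and 868 bp of H3K27ac, with both knockdown values above both control values, and 310, 0, 319 and 406 bp of H3K9ac. Ifit2 was called in neither knockdown comparison of H3K27ac, with 694, 620, 720 and 913 bp.

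The oligoadenylate synthetases, which switch on RNase L after sensing double-stranded RNA, had little of either mark. Oas1a had 0, 0, 0 and 254 bp of H3K27ac and Oas2 177, 0, 275 and 0 bp, without H3K9ac in any list. Oasl2, a related gene, had 0, 315, 570 and 526 bp of H3K27ac and 0, 0, 237 and 292 bp of H3K9ac, which left the untreated control list without a peak of either mark. Oas3 and Oasl1 had no peak in any of the 8 lists. The same held for Zbp1, a sensor of Z-form nucleic acid, and Ifi44.

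Guanylate-binding proteins are GTPases that attack vacuoles of intracellular microbes. Gbp3 had 696, 438, 507 and 831 bp of H3K27ac, with the knockdown value 1.90 times the control value in ethanol-treated mice, and 302, 0, 215 and 201 bp of H3K9ac. Gbp3's untreated values had the opposite order for H3K27ac. Gbp2 had no H3K27ac peak, and its H3K9ac-covered bases were 0, 0, 0 and 133 bp. Of the remaining interferon-induced genes, Ifi27 had 362, 324, 646 and 1089 bp of H3K27ac and 0, 231, 157 and 615 bp of H3K9ac. Ifi35 had 215, 0, 187 and 607 bp and 0, 150, 0 and 235 bp of the 2 marks. Both were highest in ethanol knockdown for either mark. Reads of the Ifit, Oas, Gbp and MHC families can match several close copies, and the placing of such reads is not stated in the sources used here.

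Transcription factors of the response differed among themselves. Irf7 (chromosome 7, 141263183 to 141266499), the factor that amplifies type I interferon production, had 384, 516, 906 and 1278 bp of H3K27ac. The knockdown value was 2.36 times the control value in untreated mice and 2.48 times in ethanol-treated mice. The further bases came in part from a region inside the gene, chr7:141265105-141265708, that was covered in both knockdown lists only. Irf9 (chromosome 14, 55603985 to 55610030), the DNA-binding partner of STAT2, had 759, 872, 1289 and 1489 bp, or 1.70 and 1.71 times the control value. Peaks lay on both sides of its start site in every list, and a further region at chr14:55604784-55605097 was present in both knockdown lists only.

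Nlrc5, the transactivator of MHC class I genes, had 334, 490, 537 and 690 bp of H3K27ac and was called in untreated mice alone, at 1.61 times. Irf1, the main factor induced by interferon gamma, had 1025, 1111, 1427 and 1390 bp, and Irf3, the factor that first induces interferon beta, 1464, 1457, 1663 and 2076 bp. Both had higher values in the 2 knockdown lists without reaching 1.5-fold. Irf2, a repressor that competes with IRF1, had 2608, 2834, 2715 and 2978 bp. Stat2 had 891, 729, 799 and 707 bp, with the highest value in untreated control. Neither Irf2 nor Stat2 separated knockdown from control.

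The receptor genes had broad H3K27ac that was alike in the 4 lists. Ifnar1 had 1637, 1834, 1644 and 1793 bp and Ifnar2 2920, 2405, 2617 and 2886 bp, and neither was called in any comparison. Among sensors of viral RNA, Ifih1, the gene of MDA5, had 666, 774, 966 and 817 bp. Dhx58, the gene of the related helicase LGP2, had 0, 149, 183 and 833 bp of H3K27ac and 210, 0, 0 and 143 bp of H3K9ac. A part of the Dhx58 window is shared with Kat2a, an acetyltransferase gene whose end lies within 2 kb. Trim25, the ubiquitin ligase that acts on RIG-I, had 634, 680, 915 and 1129 bp of H3K27ac and was called in ethanol-treated mice alone, at 1.66 times.

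Genes of the ubiquitin-like modifier ISG15 and of ADP-ribosylation gave 0 calls of 5 for H3K27ac in any of the 4 comparisons. At the same coverage 6% to 20% of other genes were higher and 0.928% to 6.79% lower. Over all genes 7.35% to 21.2% were higher. With 5 genes, 0 calls is near these shares and is not read as a trait of the group. Isg15, among the genes most strongly induced by interferon in many cells, had 825, 859, 854 and 758 bp. Usp18, which removes ISG15 and restrains the receptor, had 957, 905, 1025 and 1191 bp. Parp14 had 636, 760, 759 and 989 bp. Parp9 and Dtx3l, partners in 1 complex, share a bidirectional stretch and had the same 953, 1256, 1200 and 1130 bp. Part of the Isg15 window belongs to Agrn. Within 2 kb of its start site alone, Isg15 had 236, 138, 130 and 38 bp, highest in untreated control and lowest in ethanol knockdown.

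Antigen presentation genes had wide H3K27ac in all lists, with sums of 12788, 14249, 16447 and 16826 bp over 9 genes. In untreated mice 4 of 9 were higher in the knockdown, and in ethanol-treated mice 0 of 9, with none lower in either. At the same coverage 6.31% and 14.1% of other genes were higher, and over all genes 12.1% and 21.2%. Tap1 and Tap2 encode the transporter that brings peptides into the endoplasmic reticulum. Tap1 (chromosome 17, 34187556 to 34197225) had 1850, 2140, 2713 and 2844 bp and Tap2 1060, 1247, 1684 and 1547 bp. Tap2 was called in untreated mice at 1.59 times. Psmb8 and Psmb9, immunoproteasome subunits on the same stretch, had 582, 861, 893 and 1058 bp and 1268, 1279, 1820 and 1786 bp, and Psmb8 was called at 1.53 times.

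The light chain and 1 of the 2 heavy chains of MHC class I were called in untreated mice. B2m (chromosome 2, 122147687 to 122153082), the light chain, had 768, 993, 1314 and 1245 bp, and the untreated knockdown value was 1.71 times the control value. A region upstream of B2m, chr2:122147020-122147558, had no peak in the untreated control list and a peak in the other 3. H2-D1, a heavy chain, had 865, 1226, 1319 and 1432 bp, called in untreated mice at 1.52 times. H2-K1, the other heavy chain, had 778, 1105, 1158 and 995 bp and was not called. In ethanol-treated mice the control values of B2m, H2-D1 and H2-K1 were closer to the knockdown values. Psmb10 (1967, 1997, 2096 and 2026 bp) and Tapbp (3650, 3401, 3450 and 3893 bp), the gene of tapasin, were called in no H3K27ac comparison.

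Ranking the 4 lists within each gene removes the size of the difference. Of 39 genes with an H3K27ac peak in any list, 24 (61.5%) had both knockdown values above both control values, against 42.5% of all genes and 39.6% of genes of the same coverage. The reverse order was found for 0 of 39, against 3.70% of all genes. Untreated control was the lowest of the 4 lists for 24 of 39 genes (61.5%), against 32.8% of all genes and 33% at the same coverage. The ethanol knockdown list was the highest for 23 of 39 (59.0%), near the 57.0% of all genes. The share of the set was thus above the background for untreated control as the lowest list, and near it for the longest list as the highest. These orders use the same untreated lists as the comparison known beforehand.

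Merged over the 4 lists, H3K27ac peaks near the 44 genes formed 85 regions. Regions in all 4 lists made up 43.5% (55.2% near all genes), those in the knockdown lists alone 7.06% (3.76%), and those in every list but untreated control 8.24% (2.82%). The second kind comprised regions at Irf3, Irf7, Irf9, Isg20, Ifit3 and H2-K1. The third kind comprised regions at Dhx58, Oasl2, Bst2, Ifitm3 and B2m and a pair between Tap1 and Psmb8. Regions in every list but ethanol control made up 5.88% (2.83%), also above the share near all genes. Only 1 region, at Stat2, was present in both control lists alone. The region shares use the same untreated lists as the comparison known beforehand, so they describe the set and support nothing by themselves.

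Ethanol in mice with the control vector went with H3K27ac calls in both directions: 5 of 37 genes were higher (13.5%) and 5 lower (13.5%), where 7.35% of all genes were higher and 7.04% lower. Those higher were Dhx58, Oasl2, Rsad2, Bst2 and Ifitm3. Those lower were Isg20, Ifit3, Oas2, Gbp3 and Ifi35. At the same coverage the background shares were 11.7% and 10.6%, close to those of the set. The median difference was nevertheless 113 bp, against -24 bp for all genes. In the knockdown, 9 of 39 were higher with ethanol (23.1%) and 1, Oas2, was lower (2.56%), against 12.3% and 3.08% of all genes and 18.5% and 4.82% at the same coverage. The median difference in the knockdown was 166 bp, with 122 bp for all genes. Higher genes were Dhx58, Ifit1, Oas1a, Rsad2, Bst2, Ifitm3, Gbp3, Ifi27 and Ifi35, and 6 of the 9 are antiviral effectors. Each ethanol comparison shares a list with each knockdown comparison, so these counts are not independent of those above.

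H3K9ac gave another picture. With ethanol in control mice, 14 of 32 genes were called lower for H3K9ac (43.8%) and 3 higher (9.38%). By any amount, 27 had fewer covered bases and 5 had more. Of all genes 30.1% were lower and 1.96% higher, and of genes of the same coverage 41.3% and 4.15%. The lower share was near that of genes of the same coverage, while the higher share, from 3 genes, was above both backgrounds. The median difference of -269 bp was near the -278 bp of all genes. Irf1 had 1112, 316, 889 and 760 bp of H3K9ac, and Trim25 1093, 284, 465 and 510 bp. Tap1 had 2110, 929, 2204 and 2106 bp, H2-D1 1583, 754, 1383 and 1072 bp, and Psmb8 963, 0, 604 and 420 bp. In each of these 5 genes the ethanol control list was the lowest. Isg15 was an exception with 379, 739, 370 and 501 bp, and Ifi27 and Ifi35 were the other genes called higher. Stat2 and Ifit2 had more covered bases with ethanol without reaching 1.5-fold.

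**Figure D4:**
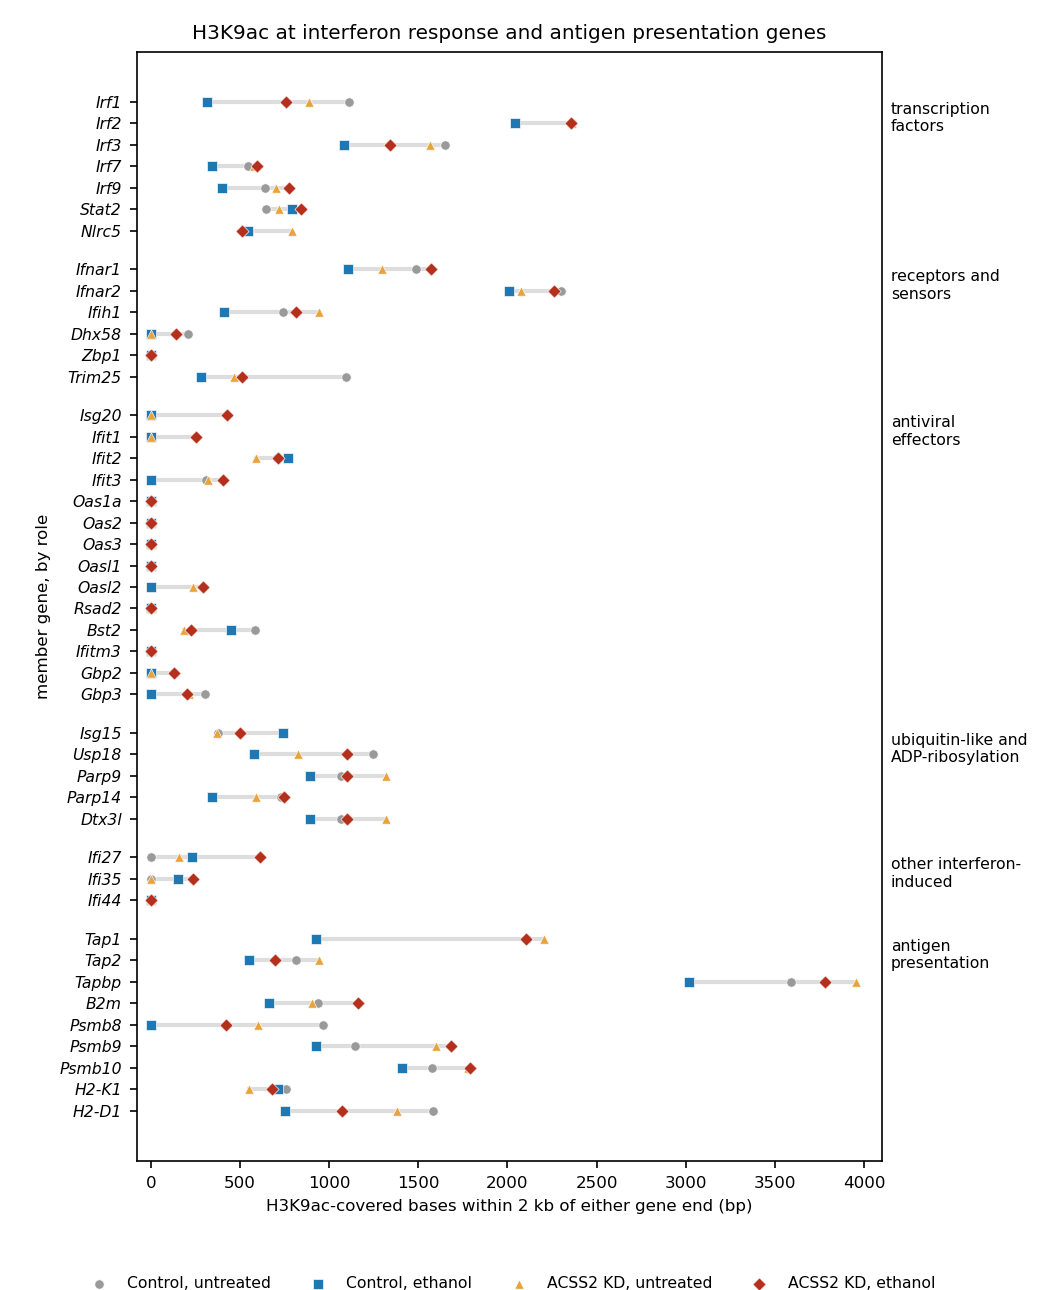
H3K9ac-covered bases (horizontal axis, bp) near each of the 44 genes (vertical axis, by role), drawn as for H3K27ac with 1 point per peak list. The ethanol control point is the lowest for 23 of the 36 genes with a peak in any list, and 8 genes have all points at 0.

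In the knockdown, 6 of 36 genes were called higher for H3K9ac with ethanol (16.7%) and 1, Nlrc5, lower (2.78%), against 12.5% and 4.89% of all genes. At the same coverage 24.5% were higher and 11% lower. Of these 6, Isg20, Ifit1 and Gbp2 are antiviral effectors with no H3K9ac peak in the other 3 lists. The others were Dhx58, Ifi27 and Ifi35. Nlrc5 had 550, 545, 793 and 510 bp.

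Between untreated lists, 2 of 32 genes were called higher for H3K9ac in the knockdown (6.25%), Oasl2 and Ifi27. Called lower were 5 (15.6%), namely Dhx58, Trim25, Bst2, Usp18 and Psmb8. By any amount, 16 had more covered bases and 16 had fewer. Of all genes 5.62% were higher and 10.6% lower. Shares among genes of the same coverage were 10.2% and 18.2%, both above those of the set. Under ethanol, 20 of 36 were higher in the knockdown (55.6%, 39.6% to 70.5%) and 1, Bst2, was lower (2.78%), against 33.3% and 1.88% of all genes. At the same coverage 47.8% were higher and 4.88% lower, inside the interval of the set. This comparison contains the ethanol control list, which was low over all genes. Usp18 had 1245, 581, 825 and 1101 bp of H3K9ac, Parp14 732, 341, 588 and 749 bp, and Ifih1 744, 413, 941 and 817 bp, so their knockdown values under ethanol were near the untreated control values.

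The remaining H3K9ac values follow the same order in part. Irf9 had 642, 397, 704 and 775 bp, Irf7 543, 343, 579 and 595 bp, and Irf3 1647, 1083, 1567 and 1344 bp. Irf2 had 2361, 2044, 2362 and 2358 bp, and B2m 937, 663, 906 and 1162 bp. The ethanol control value was the lowest in all 5. Ifnar1 had 1487, 1104, 1298 and 1572 bp, Ifnar2 2299, 2011, 2074 and 2263 bp, and Tapbp 3587, 3017, 3954 and 3780 bp. Parp9 and Dtx3l both had 1067, 894, 1317 and 1102 bp. By order of the lists, both knockdown values were above both control values for 10 of 36 genes (27.8%), against 27.7% of all genes, and untreated control was lowest for 2 of 36 (5.56%), against 8.04%. Both H3K9ac shares were thus near the background.

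Both marks were higher in the ethanol knockdown than in ethanol control at 11 of the 35 genes with peaks of both marks in either list (31.4%), against 9.36% of all such genes. They were Irf7, Irf9, Dhx58, Trim25, Isg20, Ifit1, Ifit3, Oasl2, Gbp3, Ifi27 and Ifi35. In untreated mice the same held for 2 of 32, Oasl2 and Ifi27 (6.25%), against 1.71% of all such genes. These shares are not adjusted for coverage.

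Other genes of the pathway, chosen by role from lists that hold none of the 44, were measured in the same way for H3K27ac. The 3 genes of each list with the largest untreated difference are given with their values, whether called or not. Of 17 further signalling and sensing genes with a peak in either list, 3 were higher in the untreated knockdown (Tyk2, Irf8 and Ddx58) and 1 lower (Tlr3). Tyk2, a kinase of the receptor, had 1310, 1486, 2406 and 2316 bp, Socs3, a feedback inhibitor, 2099, 2069, 2880 and 2729 bp, and Myd88, the adaptor of Toll-like receptors, 2425, 2348, 2987 and 2716 bp. Among 15 further effectors 2 were higher (Lgals3bp and Pml) and 2 lower (Ifitm2 and Gbp5). Xaf1 had 1976, 2415, 2915 and 2332 bp, Lgals3bp 1232, 1228, 2070 and 1661 bp, and Pml, the gene of nuclear PML bodies, 937, 1229, 1537 and 1406 bp. Among 14 further antigen presentation genes 2 were higher (H2-Q4 and H2-Ab1) and 1 lower (Ciita). H2-Q4 had 0, 569, 596 and 718 bp, H2-Ab1, an MHC class II chain, 214, 509, 513 and 546 bp, and the chaperone gene Calr 2072, 2167, 2441 and 3027 bp. Socs3, Myd88, Xaf1 and Calr did not reach 1.5-fold in untreated mice. In ethanol-treated mice 6 of 18, 6 of 17 and 0 of 13 were higher and 0 lower in the 3 lists. Of all genes with a peak in either list, 12.1% were higher and 3.67% lower in untreated mice. With ethanol these all-gene shares were 21.2% and 2.02%. The summed ratio of knockdown to control was 1.13, 1.18 and 1.09 in untreated mice and 1.24, 1.31 and 1.18 in ethanol-treated mice, beside 1.29 and 1.37 for the 44 genes. For all protein-coding genes it was 1.08 and 1.22.

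**Figure D5:**
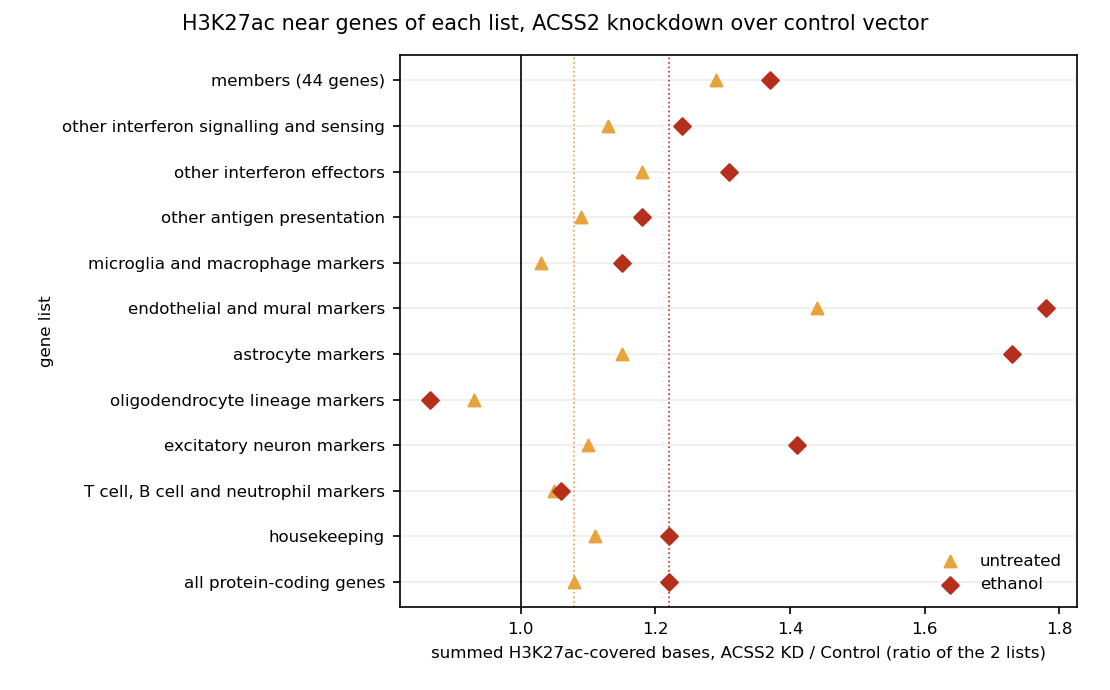
Ratio of summed H3K27ac-covered bases, knockdown list over control list (horizontal axis), for the 44 genes, other interferon and antigen presentation lists, cell type markers, housekeeping genes and all protein-coding genes (vertical axis), in untreated (triangles) and ethanol-treated mice (diamonds), with dotted lines at the values of all genes. The 44 genes lie at 1.29 and 1.37, and endothelial and mural markers lie further right at 1.44 and 1.78.

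Markers of cell types that can carry interferon-induced genes were measured in the same way, as values that move beside the set. Of 10 excitatory neuron genes 9 had H3K27ac in every list. Per list, 63.9% to 66.8% of all genes and 18 or 19 of 20 housekeeping genes had a peak. The count of neuronal markers therefore does not identify the tissue. Of 18 microglia and macrophage markers 7 had an H3K27ac peak in either list of a knockdown comparison, and their sums were 5988, 5476, 6197 and 6275 bp. The defining microglial genes Cx3cr1, Tmem119, C1qa, C1qb, C1qc, Trem2 and Tyrobp were at 0 in every list of either mark. Of 14 endothelial and mural markers 6 and 7 had a peak in untreated and ethanol-treated mice, with sums of 4090, 3627, 5871 and 6460 bp. The ratio of knockdown to control was 1.44 and 1.78, and 7 of the 14, Pecam1, Tek and Cdh5 among them, were at 0 in all 4 lists. The 12 astrocyte markers summed to 11433, 10634, 13112 and 18354 bp, with ratios of 1.15 and 1.73, Aqp4 at 0 in all lists and 6 of 10 higher in ethanol-treated mice. Markers of T cells, B cells and neutrophils gave 1.05 and 1.06 with 8 of 10 at 0, oligodendrocyte lineage markers 0.931 and 0.866, and housekeeping genes 1.11 and 1.22. Excitatory neuron markers gave 1.1 and 1.41, with 1 and 5 of 9 higher and 0 lower. All protein-coding genes gave 1.08 and 1.22, with 12.1% and 21.2% higher and 3.67% and 2.02% lower. Endothelial and mural markers in either setting, and astrocyte and excitatory neuron markers under ethanol, thus had larger ratios than the 44 genes, and their part in the result was not tested. For H3K9ac, astrocyte markers summed to 9536, 4591, 8378 and 9298 bp and excitatory neuron markers under ethanol to 11244 bp in control and 22427 bp in the knockdown, and their part was not tested either.

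Neighbouring genes limit some values. The 44 genes lie at 39 separate stretches, because Parp9 with Dtx3l, Oas2 with Oas3, and Tap1 with Tap2, Psmb8 and Psmb9 share or adjoin windows and are not independent of each other. The end of a gene outside the set lies in the windows of 13 of the 44. Irf7 shares its window with Phrf1, Irf9 with Rnf31, Ifi35 with Vat1 and Isg15 with Agrn. Among the 31 genes free of such neighbours, 12 of 26 with an H3K27ac peak in either list were higher in the untreated knockdown. In the ethanol knockdown 9 of 26 were higher. Over all genes the shares were 12.1% and 21.2%. None of the 31 could be lower, since 0 of the 44 were.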

How the data were processed

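ChIP-seq was done by the submitters on about 20 mg of dorsal hippocampus per mouse, with fragments of about 250 bp and reads of 75 bp, per the labels' protocols. The 36 samples were assigned to 12 groups by their labels. Per the submitters' processing notes, bcl2fastq, STAR 2.5.2a, bedtools, MACS2 and GRCm38 (mm10) were used, with no role given. The authors deposited 8 lists of peaks of ChIP over input, named for a false discovery rate of 0.001. The pooling of replicates and the depth are not stated in the sources used here. Scores in the deposited files were taken to be −log10 q-values, because none was below 3. They served to filter peaks inside 1 list at a time. Peak positions in the deposited lists are the values analysed.

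Gene ends came from the RefSeq table of GRCm38.p6 and the strand of 35 members from its promoters. Bases inside peaks within 2 kb of either end were counted (python 3.11.15, numpy 2.4.6, pandas 2.3.3), which was tested on simulated data. A gene was called at a 1.5-fold difference, and Wilson intervals of 95% cover counting error only. For genes of the same coverage, 10 bins of mean covered bases were used for each mark. With 1 list per group no test of a difference and no check of replicates was possible.

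The members and all lists were chosen with earlier results of these data known. In each role, up to 4 members per mark with the widest range over the lists are given in full, with every member that had a peak in some lists only. Genes outside the set are the 3 of each pathway list with the largest untreated H3K27ac difference. Promoter stretches are those of up to 6 members with a motif match and the largest such difference. Further values were chosen after they were seen. Alternatives were windows of 1 kb and 5 kb, whole genes, stronger peaks, lists of equal length, folds of 1.2 and 2, and shared windows counted once. Input samples were not analysed here, since their lists are part of the peak calling.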

Additional observations from a re-analysis of the deposited data

Results flagged for a closer look

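The H3K9ac difference between ethanol-treated and untreated mice pointed in opposite directions in the 2 vector groups. In control mice 17.6% of the genes that differed at least 1.5-fold had more covered bases with ethanol (3 of 17), and in knockdown mice 85.7% had more (6 of 7). The difference between the 2 vector groups was not tested, because each value comes from 1 pair of peak lists. All protein-coding genes showed the same contrast, with 1.96% higher and 30.1% lower in control mice and 12.5% higher and 4.89% lower in knockdown mice. Without genes whose windows hold the end of a gene outside the set, the knockdown share was 50% (1 of 2).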

How the results depend on the processing

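Of 80 shares recomputed under other settings (the percent of called genes that were higher, in 8 comparisons), 75 stayed within the counting interval of the reported value, 5 moved beyond it and 0 reversed. A reversal was counted only where the interval of the reported value excluded 50%. H3K9ac with ethanol in control mice went from 17.6% to 0% over members with no end of another gene in their windows. H3K9ac with ethanol in the knockdown went from 85.7% to 100% with whole genes, with a fold of 2 and with a window at the start site only, and was 50% without neighbouring genes (1 higher, 1 lower) and 62.5% with stronger peaks (5 higher, 3 lower); its count of 6 higher was 15 at 1.2-fold. H3K9ac in the knockdown against control in untreated mice went from 28.6% to 0% with lists of equal length. The cause was not tested. The setting for neighbouring genes and that for the start site were chosen after seeing the data. Counts of genes higher depended on the fold: for H3K27ac in the knockdown against control, 16 in untreated mice became 24 at 1.2-fold and 7 at 2-fold, and 15 in ethanol-treated mice became 27 and 10. With a window at the start site only, the 16 became 10, and without neighbouring genes the 15 became 9. H3K27ac with ethanol gave 13 and 5 higher at 1.2-fold and 2-fold against 5 in control mice, and 16 and 4 against 9 in the knockdown. For H3K9ac in the knockdown against control under ethanol, 20 became 28 and 12, and 12 with stronger peaks alone. With stronger peaks the untreated H3K9ac share in the knockdown against control crossed 50%, from 28.6% (2 higher, 5 lower) to 61.5% (8 higher, 5 lower). Its interval held 50%, so this was not counted as a reversal. At 1.2-fold the untreated H3K9ac count of 2 higher became 7. No paired analysis was possible because each group has 1 pooled peak list, and for the same reason no replicate could be left out. Precision is limited by the unknown depth of the lists.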
